A study of Mus musculus with 2 samples.

Results

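The aldehyde dehydrogenase (Aldh), aldo-keto reductase (Akr1 and Akr7) and carbonyl reductase (Cbr) genes of the mouse were examined for nearby binding of the transcription factor MAFK. Members were all protein-coding GENCODE vM21 genes whose symbol starts with Aldh and a number, Akr1, Akr7, or Cbr and a number. This rule gave 42 of the 21938 protein-coding genes on chromosomes 1 to 19, X and Y. They were 7 Aldh1 genes, 14 other Aldh genes, 16 Akr1 genes, 1 Akr7 gene and 4 Cbr genes. The rule used names only and no measured value. Binding was mapped by chromatin immunoprecipitation and sequencing (ChIP-seq) with an antibody against MAFK in ES-E14, a male embryonic stem cell line of strain 129/Ola. The single group was these cells with no treatment named in the labels, in 2 biological replicates. Both replicates name 1 and the same cell source, and their spread may therefore be technical in part. With 1 group there was no comparison between conditions and no test, and the control experiment to which the labels point was not analysed here. The files hold bound regions and not expression, so the labelled cell type was not checked against marker genes.

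The enzymes of these families remove reactive carbonyl groups. Aldehyde dehydrogenases oxidise aldehydes from amino acid, lipid, alcohol and retinoid metabolism to acids, whereas aldo-keto and carbonyl reductases use NADPH to reduce aldehydes, ketones and quinones to alcohols. MAFK is a small MAF protein that recognises DNA as a homodimer or paired with a CNC protein such as NRF2 or BACH1. Several genes of carbonyl and quinone detoxification are known targets of the NRF2 and small MAF pair at antioxidant response elements (AREs).

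The sequences at the summits of the leading regions are shown first, because the elements they hold differ from gene to gene. Each is the element nearest the summit of the gene's strongest region, with 9 bases to either side, read 5′ to 3′ on the strand named, from the GRCm38 (mm10) reference. That reference is of strain C57BL/6J, so bases of the 129/Ola cells can differ. Capitals mark an ARE core (TGACNNNGC or TGAGNNNGC), the composite element in which an ARE core runs on into a MAF site, or, where neither was within 50 bp of the summit, the MAF core TGCTGA. The composite element contains an ARE core, an AP-1 element and, on the other strand, a MAF core, so these counts overlap.
Cbr3, chr16:93682542-93682565, minus strand, MAF core: tcgagtctgTGCTGAtcctacttg
Aldh9a1, chr1:167349895-167349921, plus strand, ARE core: taattatgcTGACTAGGCccaagctac
Akr1b10, chr6:34399833-34399860, minus strand, composite: gcttgagaaTGACTCAGCAcaacctaaa
Akr1c14, chr13:4076949-4076972, plus strand, MAF core: catcttttaTGCTGAtgctgcagt
Akr1a1, chr4:116655325-116655348, plus strand, MAF core: tgaataaacTGCTGAatcattgct
Aldh4a1, chr4:139630353-139630379, minus strand, ARE core: ggaagaaccTGAGCCAGCaaactcagc
Aldh2, chr5:121584192-121584218, minus strand, ARE core: ctggaagaaTGACACAGCatattccag
Akr7a5, chr4:139325140-139325163, minus strand, MAF core: atcagaaagTGCTGActgtgagaa
Cbr2, chr11:120720652-120720678, plus strand, ARE core: cagagagagTGAGAACGCatctctccg
Aldh18a1, chr19:40589468-40589494, minus strand, ARE core: aaagtgctgTGAGCGCGCcttcctttt
The Akr1b10 sequence was the sole composite element among them, and the Aldh6a1 region held none of these elements. No sequence is shown for Aldh7a1.

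The authors' optimal list held 16865 regions on mm10, of which 16836 on the assembled chromosomes were used. Each region has a summit and a signal value, a score whose scale the sources used here do not state. The score was used to describe and rank regions, with rank 1 as the highest. The replicates' own thresholded lists held 7748 and 9541 regions, and their relaxed lists, which hold background as well, 264306 and 300000. As no reads were given, the sequencing depth behind these values is unknown.

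A summit of the optimal list lay within 10 kb of an annotated transcription start site (TSS) of 13 of the 42 genes, or 31.0% (95% exact Clopper-Pearson interval 17.6% to 47.1%, which covers counting error only, as do all intervals here). Among all protein-coding genes the share was 26.9%, which is inside that interval. The families differed in their counts. No Aldh1 gene of 7 had a region, with an upper limit of 41.0%, whereas 6 of the 14 other Aldh genes did (42.9%, interval 17.7% to 71.1%). The Akr1 genes had 4 of 16 (25%, interval 7.27% to 52.4%), and the Akr7 gene, Akr7a5, had a region as well. The Cbr genes had 2 of 4 (50%, interval 6.76% to 93.2%). All of these intervals are wide and overlap, which does not show that the shares are equal. The families were not compared by a test, and no order of them is drawn from so few genes.

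The 13 genes had 20 regions between them, and 4 of the 13 had more than 1 region. The matching share over all protein-coding genes with a region is not given here. The strongest region of each had a median signal of 44.5, from 15.2 at Akr1b3 to 143.5 at Cbr3. Over the 5898 protein-coding genes with a region, the median was 31.3 and the quartiles were 20.6 and 57.2. Of the 13 genes, 8 were above that median, 6 were above the upper quartile and 3 were below the lower quartile. The 6 genes above the upper quartile were Cbr3, Aldh9a1, Akr1b10, Akr1c14, Aldh7a1 and Akr1a1. Counted by region, the median of the 20 was 28.4, beside 27.2 for all 6564 optimal regions within 10 kb of a protein-coding TSS.

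**Figure D1:**
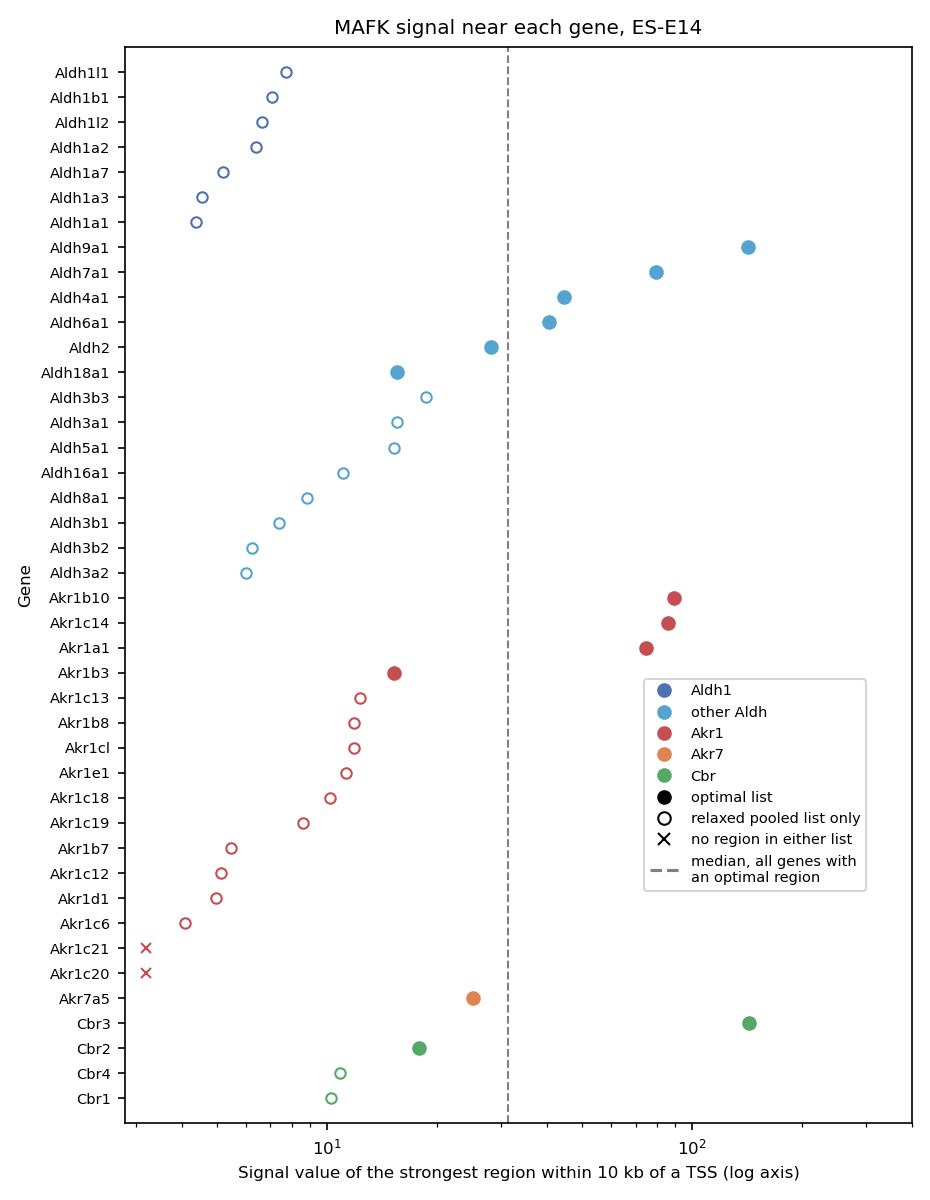
Signal value (log axis) of the strongest region within 10 kb of a TSS for each of the 42 genes, coloured by family. Filled points are regions of the optimal list, open points regions found only in the relaxed list of the pooled replicates, crosses genes with a region in neither, and the dashed line marks the median of all protein-coding genes with an optimal region (31.3). The 13 filled points run from 15.2 to 143.5, and all 7 Aldh1 genes are open points.

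The 2 carbonyl reductase genes with a region differed widely in signal. Cbr3, an NADPH-dependent reductase of quinones and other carbonyls, had the strongest region within 10 kb of any of the 42 genes, at chr16:93682393-93682626, in intergenic sequence 709 bp upstream of its TSS. Its signal was 143.5 (rank 749 of all 16865 in the optimal list). The relaxed lists gave 69.1 in replicate 1 (rank 832) and 77.0 in replicate 2 (rank 641). Both replicates placed it among their highest regions, and both thresholded lists held it. The MAF core shown above was 47 bp from the summit, near the edge of the 50 bp window, and no ARE core was in the window. Cbr1, its paralog on the same chromosome and a broad-specificity carbonyl reductase, had no optimal region within 10 kb. Its nearest optimal summit was that of the Cbr3 region, 74617 bp away. A relaxed pooled region 282 bp from a Cbr1 TSS had a signal of 10.3, with 5.76 in replicate 1 and 5.63 in replicate 2. The Cbr1 value was thus low in each replicate, where the Cbr3 value was high in each.

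Cbr2, which encodes the mitochondrial carbonyl reductase first known from lung, had a weak region at chr11:120720512-120720807 with a signal of 17.8. It gave 3.84 in replicate 1 and 12.7 in replicate 2 and was in neither thresholded list. Its summit was 9445 bp from a Cbr2 TSS, the largest distance of any gene counted, and lay in coding sequence of Lrrc45, 810 bp from a TSS of Rac3. The same region was within 10 kb of Dcxr, the gene of another carbonyl reductase, so it cannot be assigned to either gene. Cbr4, a mitochondrial quinone reductase, had its nearest optimal summit at 14705 bp, closer to a TSS of Palld than to its own, with a signal of 27.2.

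Among the aldehyde dehydrogenases the strongest region was at Aldh9a1, the enzyme that oxidises trimethylaminobutyraldehyde in carnitine synthesis. It spanned chr1:167349798-167350015, with its summit 70 bp upstream of the TSS and a signal of 142.6 (rank 754). The replicates gave 66.0 (rank 905) and 75.1 (rank 678), and both thresholded lists held it. The ARE core shown above was 13 bp from this summit. Aldh9a1 had a further pair of regions beyond its gene's 3′ end. One at chr1:167372783-167373078 had a signal of 46.3 (17.0 and 27.8 in replicates 1 and 2), was in both thresholded lists, and lay in an intron of Mgst3, a microsomal glutathione transferase gene. The other, at chr1:167370036-167370331, had a signal of 23.1 (7.66 and 14.6) and was in the list of replicate 2 alone. Both of these were measured from the start of a retained-intron transcript, at 8765 and 6018 bp, and were 22940 and 20193 bp from the start of the gene.

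Aldh7a1, the antiquitin gene of lysine breakdown, also had 3 regions. The strongest, at chr18:56569248-56569384, had a signal of 79.8, with 29.9 in replicate 1 (rank 3196) and 49.4 in replicate 2 (rank 1491), and both thresholded lists held it. It lay in repeat-masked sequence in introns of both Aldh7a1 and the overlapping gene Phax, 3603 bp from the Aldh7a1 TSS and 3474 bp from a Phax TSS. None of the elements was in its window. A region at chr18:56562360-56562655 (signal 28.6, 15.3 and 12.2 in the replicates, in both lists) lay in untranslated exons of both genes and was again nearer to Phax, at 65 bp against 180 bp. The last, at chr18:56523804-56524099, had a signal of 14.6 and gave 3.04 and 8.88 in the relaxed lists, with neither thresholded list holding it. The shared positions leave the stronger pair of regions unassigned between Aldh7a1 and Phax.

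Aldh4a1, Aldh6a1 and Aldh18a1 are further enzymes of amino acid metabolism. Aldh4a1, the second enzyme of proline breakdown, had a region at chr4:139630225-139630520 with a signal of 44.5. This region lay in introns of both Aldh4a1 and the overlapping gene Gm21969. Its replicate values were 17.3 (rank 6419) and 27.7 (rank 3680), and the list of replicate 2 alone held it. Aldh6a1, which acts in valine breakdown, had a region at chr12:84451104-84451399 with a signal of 40.5, 248 bp upstream of its TSS. The values were 12.4 in replicate 1 and 27.5 in replicate 2, and both lists held it, but a TSS of the neighbouring gene Lin52 was nearer, at 170 bp. Aldh18a1, which makes the proline precursor that Aldh4a1 consumes, had the lowest strongest region of the aldehyde dehydrogenases counted. It was at chr19:40589301-40589596, 986 bp upstream, with a signal of 15.6 (7.74 and 7.45), and was in neither list.

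Aldh2, the mitochondrial enzyme that clears acetaldehyde, had a region at chr5:121584082-121584377 in an intron of the gene. Its signal was 28.1, with 19.2 in replicate 1 and 14.9 in replicate 2, and both lists held it. The summit was 4564 bp from the nearest annotated TSS of Aldh2 and 9594 bp from the start of the gene.

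The Akr1 genes with a region fell into high and low values. Akr1b10, an aldose reductase-like gene, had a region at chr6:34399786-34399932 with a signal of 89.2 (rank 1731), 44.0 in replicate 1 (rank 1870) and 48.3 in replicate 2 (rank 1548). It was in both thresholded lists, and the composite element shown above was 15 bp from its summit. It lay beyond the gene's 3′ end, 8400 bp from the start of a retained-intron transcript and 15613 bp from the start of the gene. Akr1c14, a 3-alpha-hydroxysteroid dehydrogenase gene, had a region at chr13:4076949-4077049 with a signal of 85.8, which gave 42.3 (rank 1990) and 43.0 (rank 1872) and was in both lists. This summit was in repeat-masked sequence of an Akr1c14 intron, 1257 bp upstream of the start of a transcript marked for nonsense-mediated decay and 27986 bp from the start of the gene. Thus both of these Akr1 regions entered the count through starts of transcripts that are not annotated as protein-coding.

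Akr1a1, the aldehyde reductase that also serves vitamin C synthesis in mice, had its strongest region at chr4:116655221-116655516, 3689 bp upstream of the TSS. The signal was 74.6, and among the 6 strongest regions within 10 kb it was the 1 whose value was higher in replicate 1 (47.4, rank 1650) than in replicate 2 (26.7, rank 3878). Both lists held it. A further pair of Akr1a1 regions lay inside the gene at its 5′ end. The region at chr4:116649452-116649747, 126 bp from a TSS, had a signal of 21.9 (7.22 and 12.8) and was in the list of replicate 2 alone. The region at chr4:116651233-116651528, 15 bp from a TSS, had a signal of 19.3 (7.0 and 11.3) and was in neither list. The region closest to a start was thus the weakest of the 3.

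Akr1b3, the mouse aldose reductase, had a region at chr6:34318302-34318597, 972 bp upstream of its TSS, with a signal of 15.2, the lowest of the 13 genes. It was the 1 region of the 20 that was missing from the relaxed list of replicate 1. In replicate 2 it had a value of 15.5, and neither thresholded list held it. Akr7a5, which reduces succinic semialdehyde and aflatoxin dialdehyde, had a pair of regions 3′ of the gene. The stronger, at chr4:139325012-139325307, had a signal of 25.2 (14.7 and 10.1), and the other, at chr4:139323568-139323863, had 18.6 (12.1 and 6.48). Neither was in a thresholded list of a replicate, and both had the higher value in replicate 1.

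**Figure D2:**
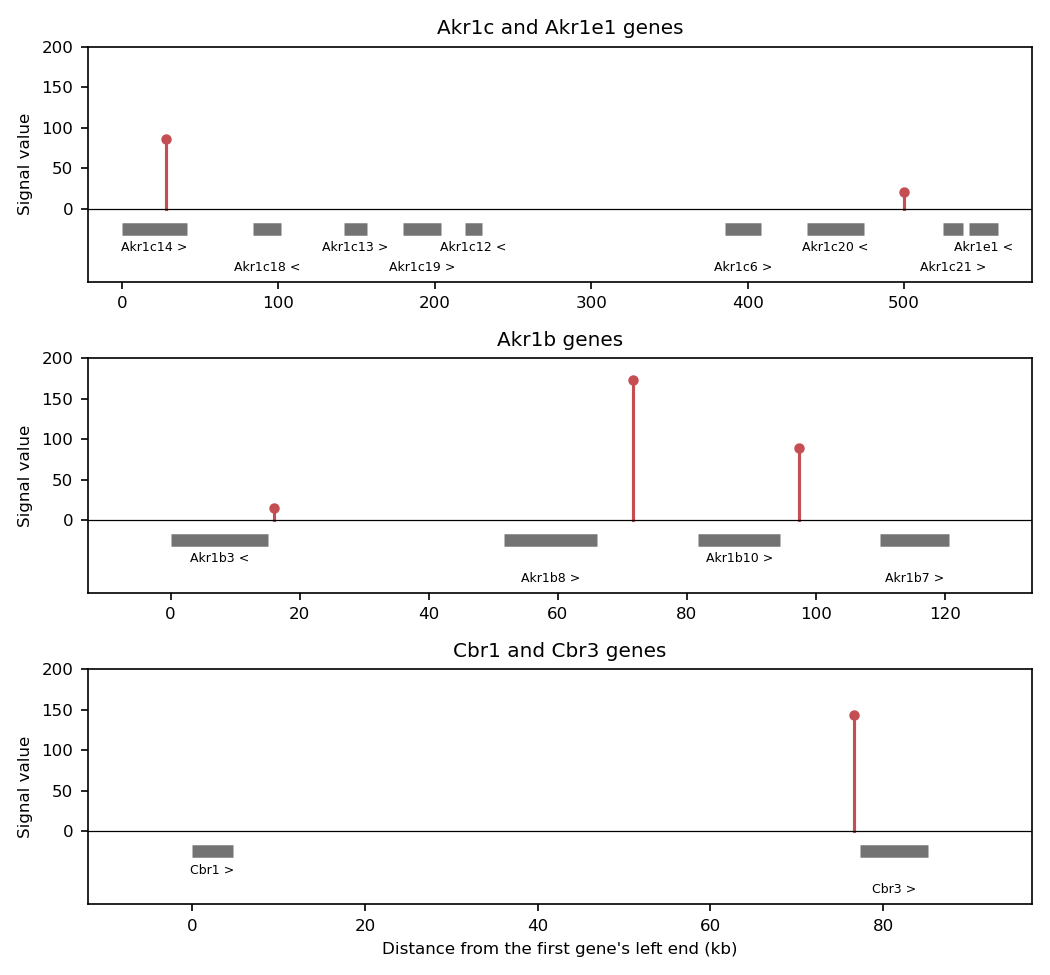
Genes (grey bars, with > or < for the strand) and optimal regions (red stems, height is the signal value) in 3 gene clusters, by distance in kb from the left end of the first gene. The Akr1c and Akr1e1 cluster held 2 regions, with 85.8 at Akr1c14, the Akr1b cluster held 3, up to 173.3, and the Cbr1 and Cbr3 genes 1, of 143.5 beside Cbr3.

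Neighbouring paralogs differed, as the plot of the gene clusters shows. The Akr1c and Akr1e1 cluster of chromosome 13, which encodes hydroxysteroid dehydrogenases and related reductases, has 9 genes over 560 kb. Of these, only Akr1c14 had a region, and the cluster with 10 kb to either side held 2 regions, or 3.45 per Mb, beside 6.39 per Mb over all chromosomes but Y. The Akr1b cluster of chromosome 6 has 4 genes over 121 kb, of which Akr1b3 and Akr1b10 had regions. It held 3 regions, or 21.3 per Mb, a value that rests on those 3 regions. The value over all chromosomes also covers sequence far from genes, so it is not a matched baseline for either cluster. The Aldh1a1 and Aldh1a7 pair on chromosome 19 had no region at all, and the nearest summits were 352116 and 226515 bp away. The 3 Aldh3b genes and the 2 Aldh3a genes had no region within 10 kb of a TSS. Reads from near-identical copies can be lost or split in such clusters, how reads were filtered is not given in the sources used here, and the part of this in these counts was not tested.

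The 29 genes without an optimal region within 10 kb had their nearest optimal summit at a median of 54775 bp. For 27 of them (93.1%) a relaxed pooled region was within 10 kb, beside 84.9% of all protein-coding genes without an optimal region. These relaxed values ran from 4.08 to 18.7, with a median of 7.71, beside 7.62 over all such genes. They were thus at the level of other genes without a region. Aldh3b3 (18.7), Aldh3a1 (15.5) and Aldh5a1 (15.3), the succinic semialdehyde dehydrogenase gene, had the highest of these values, above the 15.2 at which Akr1b3 entered the optimal list. Akr1c20 and Akr1c21 had no relaxed pooled region either. Both relaxed replicate lists held the region in 9 of the 29.

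The 7 Aldh1 genes, all without a region, had relaxed values from 4.38 at Aldh1a1 to 7.71 at Aldh1l1. Aldh1a1, Aldh1a2 and Aldh1a3 encode the retinal dehydrogenases that make retinoic acid, and Aldh1l1 and Aldh1l2 encode folate enzymes. The remaining genes without an optimal region were Aldh1a7, Aldh1b1, Aldh3a2, Aldh3b1, Aldh3b2, Aldh8a1, Aldh16a1, Akr1b7, Akr1b8, Akr1c6, Akr1c12, Akr1c13, Akr1c18, Akr1c19, Akr1cl, Akr1d1, Akr1e1, Cbr1 and Cbr4.

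The 10 kb limit decided several members. Just inside it was Cbr2 at 9445 bp, with the signal of 17.8 given above. Just outside were Akr1d1 at 11289 bp (49.1), Aldh5a1 at 11441 bp (17.8), Aldh1a2 at 11972 bp (77.0), Akr1b7 at 12503 bp (89.2, the Akr1b10 region) and Cbr4 at 14705 bp. The summit nearest Aldh5a1 lay in an intron of Gpld1, 5950 bp from a TSS of that gene, and the list of replicate 2 alone held its region. The strongest region within 20 kb of any of the 42 genes was outside the limit as well. It was at chr6:34373922-34374160, 10183 bp upstream of Akr1b10 and 17920 bp from Akr1b8, with a signal of 173.3 (rank 487). The replicates gave 106.4 (rank 337) and 71.3 (rank 746), and both thresholded lists held it. A region at chr19:40607762-40607998, 19412 bp upstream of Aldh18a1, had a signal of 156.8 but lay in an intron of Tctn3, 4313 bp from a TSS of that gene. Aldh1a2, the retinal dehydrogenase of the early embryo, had its region at chr9:71227613-71227908 inside its own intron, with 34.3 in replicate 1 and 44.1 in replicate 2, in both lists. Akr1d1, the steroid 5-beta-reductase gene, likewise had an intronic region, at chr6:37550822-37551117, with 26.6 and 21.1, in both lists.

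These 4 regions beyond 10 kb were chosen for display after their values had been seen, because they are the ones named above that both thresholded lists held. Capitals mark the same elements as before.
Akr1b10 upstream, chr6:34373983-34374009, minus strand, ARE core: gcgcaagctTGAGAGGGCagggcaggc
Akr1d1 intron, chr6:37550957-37550984, plus strand, composite: ggtttacccTGACTCAGCAgtttacctc
Aldh1a2 intron, chr9:71227747-71227770, plus strand, MAF core: caaagaaaaTGCTGActgagttgt
Aldh18a1 upstream, chr19:40607868-40607895, minus strand, composite: gagatgtgcTGACTCAGCAtgatctgag
The composite element was 0 bp from the summit at Akr1d1 and 6 bp from it in the region upstream of Aldh18a1.

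**Figure D3:**
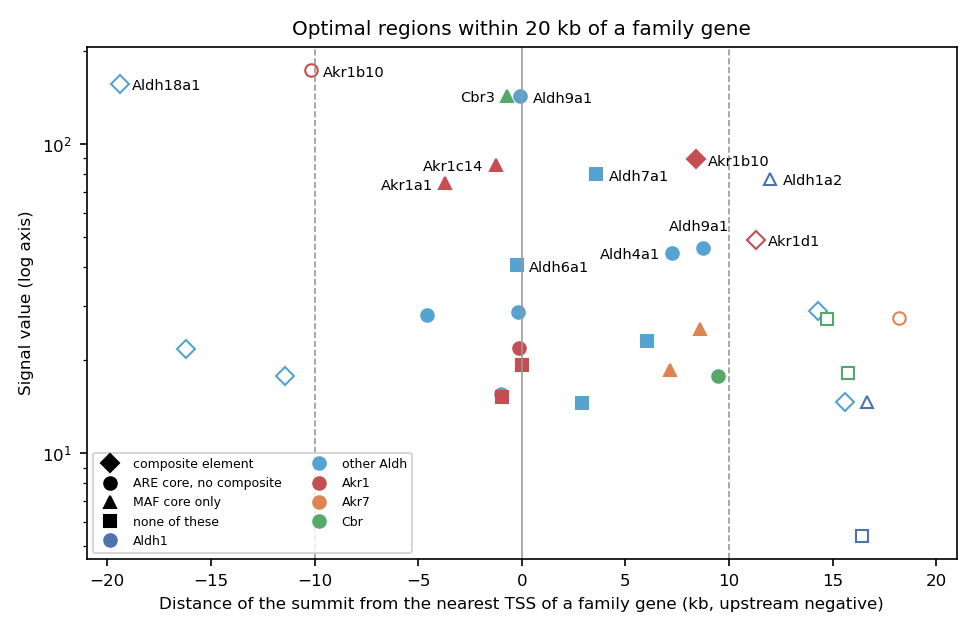
Signal value (log axis) of each optimal region within 20 kb of one of the genes against the distance of its summit from the nearest TSS of these genes (kb, upstream negative), coloured by family, with the marker shape giving the sequence element. Filled markers are within 10 kb (dashed lines), open ones beyond it; the strongest of all, 173.3, lies just beyond the limit upstream of Akr1b10.

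Of the 20 regions within 10 kb, 8 had their summit within 1 kb of a TSS of the gene (40%). Of all optimal regions within 10 kb of a protein-coding TSS, 30.3% were within 1 kb of any such TSS. By that wider measure the Cbr2 region, 810 bp from a TSS of Rac3, would count as well. Summits were upstream of the nearest member TSS in 10 of the 20. They lay in intergenic sequence in 10, in introns in 7, in untranslated exons in 2 and in coding sequence in 1. For 16 of the 20 the nearest protein-coding TSS belonged to the member gene itself, and the other regions were nearer to Phax, Lin52 or Rac3.

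An ARE core was within 50 bp of the summit in 9 of the 20 regions (45%, interval 23.1% to 68.5%), on either strand. It was in 56.4% of all optimal regions within 10 kb of a protein-coding TSS, in 60.3% of all optimal regions, and in 7.15% of equally wide flanking windows, which were centred 1000 bp from the summits. The MAF core was in 9 of the 20 as well, beside 55.3%, 62.8% and 7.29% in the same 3 sets. The AP-1 element (TGACTCA or TGAGTCA) was in 2 of the 20 (10%, interval 1.23% to 31.7%), at Akr1b10 and Akr1b3, beside 35.2%, 37.8% and 1.81%. The composite element was in 1 of the 20 (5%, interval 0.127% to 24.9%), beside 24.8%, 28.2% and 0.0891%. The palindromic MAF site, with 2 mismatches allowed, was also in 1 of the 20 (5%, interval 0.127% to 24.9%), at Aldh9a1. In the same 3 sets its shares were 34.2%, 39.2% and 0.401%. Near these genes each of these elements had a share above that of the flanking windows and below that of all regions within 10 kb. The shares over all regions within 10 kb were inside the intervals for the ARE core, the MAF core and the composite element (24.8% against an upper bound of 24.9%). They were above the upper bound for the AP-1 element, a count of 2 regions, and for the palindromic site, a count of 1. Among the 1986 optimal regions within 1 kb of a protein-coding TSS the shares were lower than among all regions within 10 kb. They were 45.9% (ARE core), 40.4% (MAF core), 23.9% (AP-1 element), 14.4% (composite element) and 21.7% (palindromic site). Each of these is inside the interval for the 20 regions, so the comparison depends on the set chosen. These differences were not tested.

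**Figure D4:**
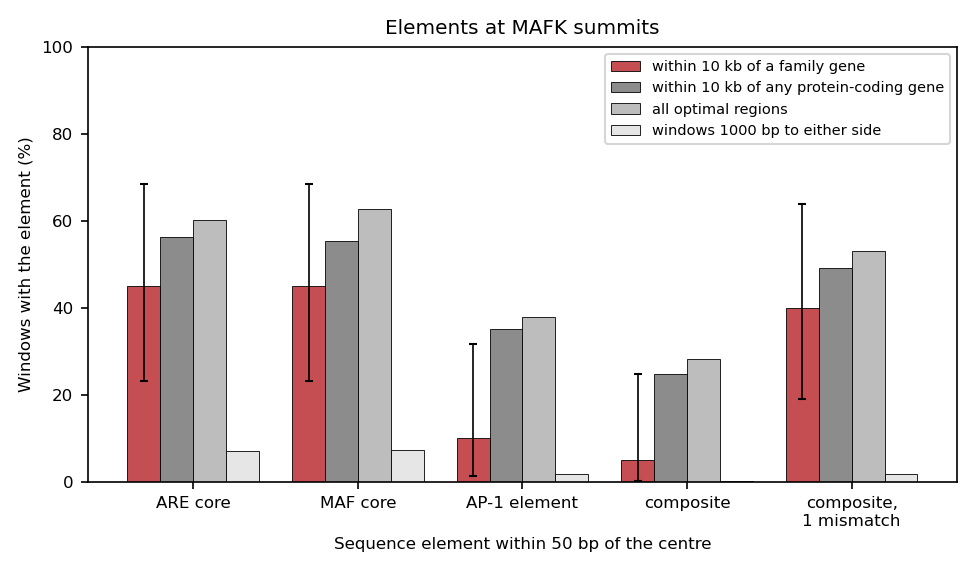
Share of windows (%) that hold each sequence element within 50 bp of the centre, for the 20 regions within 10 kb of the genes (red, with 95% exact intervals), all optimal regions within 10 kb of a protein-coding gene, all optimal regions, and windows 1000 bp to either side. The red bar for the composite element is at 5%, with no red bar lower, and its interval reaches 24.9%.

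With 1 mismatch allowed, the composite element was found in 8 of the 20 regions (40%, interval 19.1% to 63.9%), beside 49.1% of all regions within 10 kb. Among the 6 strongest regions the closest matches varied. The windows of Cbr3, Aldh9a1 and Akr1c14 each differed from the composite element at 2 positions at their closest match, that of Aldh7a1 at 3, that of Akr1a1 at 1, and that of Akr1b10 at 0. Among the 20 regions, those with an ARE core had a median signal of 28.6 and those without had 25.2. Over all optimal regions these medians were 32.7 and 22.5. Farther out, 29 regions lay 10 to 50 kb from a member TSS, and 14 of them held the composite element (48.3%, interval 29.4% to 67.5%). Of the 5422 optimal regions 10 to 50 kb from the nearest protein-coding TSS, 29.95% held it, which is just inside that interval. The 29 regions can lie nearer to other genes, so these sets are not chosen in quite the same way. This distance was looked at after the nearer regions had been counted.

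Promoter sequence was searched as well. RefSeq windows of GRCm38.p6, from 250 bases before to 50 after a gene's start, matched 34 of the 42 genes. An ARE core was in 11 of their 36 windows, each of a different gene, and in 29.2% of all such windows. Of those 11 genes, 2 had an optimal region within 10 kb, Aldh4a1 and Aldh9a1, beside 10 of all 34. The Aldh4a1 summit was 7264 bp from its nearest TSS. The same share over all genes with an ARE core in the promoter was not counted, and no relation was tested. The other 9 of the 11 were Akr1b7, Akr1c12, Akr1c13, Akr1c19, Akr1cl, Aldh1a1, Aldh1a2, Aldh1a7 and Aldh3a2. No member promoter held the composite element, which was in 0.203% of all such windows.

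The replicates ranked the regions in a similar order. In their relaxed lists, 19 of the 20 regions had a value in both replicates. Across these 19 regions Spearman's rho was 0.79 and Pearson's r of the log2 signal was 0.82, beside 0.70 and 0.76 over the 15867 optimal regions with both values. These correlations are a description across regions of the same libraries, which are not independent. Both thresholded lists held 10 of the 20 regions (50%, interval 27.2% to 72.8%), beside 35.1% of all optimal regions within 10 kb of a protein-coding TSS. Every region with a signal of 46.3 or more was in both lists. All 10 regions of replicate 1 were also in the list of replicate 2, which held a further 3, at Aldh4a1, Aldh9a1 and Akr1a1. The remaining 7 regions were in neither list. The thresholded lists came from another processing run than the optimal list.

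**Figure D5:**
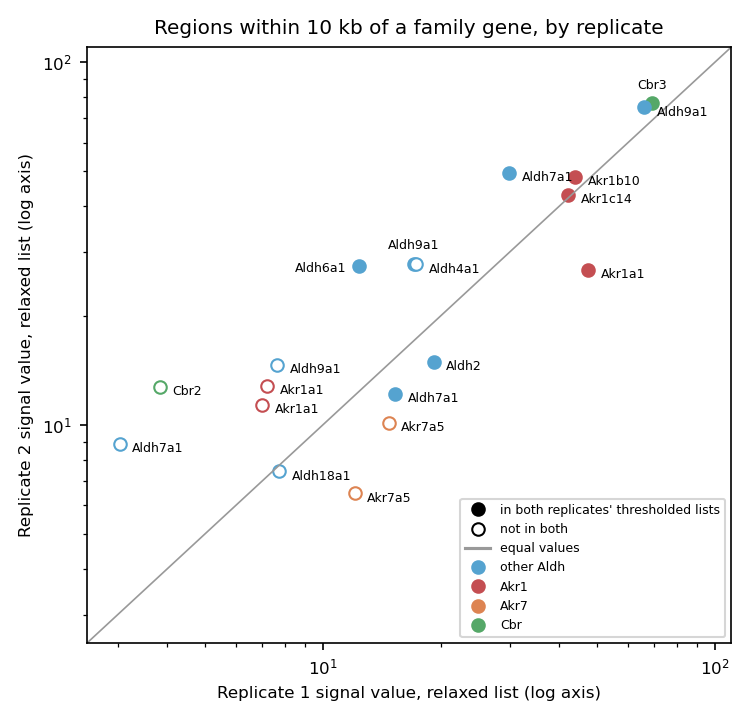
Signal value in replicate 1 against replicate 2 (relaxed lists, both axes log) for the 19 regions present in both, coloured by family. Filled points were in both replicates' thresholded lists and the line marks equal values; Cbr3 and Aldh9a1 are highest in both, and Akr1a1 (47.4 and 26.7) lies farthest below the line among the 6 strongest regions.

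Other lists and limits changed how many genes were counted, and the background share moved with them. Of the 42 genes, 14 had a summit within 10 kb in the conservative list, beside 25.8% of all protein-coding genes. The 2 lists of the second processing run gave 15 (beside 26.9%) and 14 (beside 26.3%). In the conservative list Akr1b3 and Cbr2 were lost and Aldh3a1, Aldh3b3 and Aldh5a1 were gained. The strongest 50% of the optimal regions left 9 genes, beside 15.1%. Requiring both replicates' lists left 8 genes, beside 11.2%, and these were Cbr3, Aldh9a1, Aldh7a1, Aldh6a1, Aldh2, Akr1b10, Akr1c14 and Akr1a1. The list of replicate 2 alone gave 9 genes (beside 17.4%) and that of replicate 1 alone 8 (beside 13.7%). Limits of 2, 5 and 50 kb gave 8, 9 and 27 genes, beside 12%, 18.6% and 59.3%.

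Counting only from the start of the gene record left 9 genes, beside 20.1%, and counting only from protein-coding transcripts also left 9, beside 23%. Both lost Akr1b10, Akr1c14, Akr7a5 and Cbr2. Cbr3, Aldh9a1, Aldh7a1, Aldh6a1 and Akr1a1 were counted under every one of these lists and limits.

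Other genes of aldehyde, retinoid and carbonyl metabolism were counted beside the same 26.9%. Of 7 alcohol dehydrogenase genes, 1 had a region, Adh4, with a signal of 22.0. Of 20 other genes of retinoid metabolism, 3 had one (15%). Among them were Rdh10 (128.1), which makes the retinal that the Aldh1a enzymes oxidise, and Dhrs3 (33.8), which turns retinal back to retinol. Of 15 other carbonyl, quinone and enal reductase and molybdenum oxidase genes, 9 had one (60%). Their strongest values were at the thioredoxin reductase gene Txnrd1 (330.1), the aldehyde oxidase gene Aox2 (173.0) and the quinone reductase gene Nqo1 (156.9), all above the 143.5 of Cbr3. The 9 also include Suox (20.9), which is a sulfite oxidase gene, and Dcxr (17.8), which was counted through the same region as Cbr2. Kcnab3 (119.0) and Kcnab2 (31.2), of the 3 potassium channel beta subunit genes that belong to the aldo-keto reductase superfamily, also had a region. These lists were chosen with earlier results of these data known and were not tested.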

How the data were processed

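MAFK ChIP-seq of ES-E14 cells was deposited as lists of regions on mm10 for 2 replicates of 1 group. No aligner, caller or read filter is given in the sources used here. Notes that the authors deposited with the samples name 2 processing runs. The optimal list was of the first run, in which the authors combined relaxed lists by the irreproducible discovery rate (IDR), and the replicates' thresholded lists were of the second. The authors deposited for each region a signal value, which is a score of unstated scale, a scaled IDR score and a −log10 q-value, of which the signal was used. Of the optimal regions, 29 on mitochondrial or unplaced sequence were left out.

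Summits (region start plus deposited offset) were compared with the start of every transcript of each gene in GENCODE vM21. A replicate's value is that of the strongest region of its relaxed list that holds the optimal summit. Overlap meant at least 1 bp. Both strands of GRCm38 were searched for elements up to 50 bp from each summit, with windows centred 1000 bp to either side as background; promoter windows came from RefSeq (GRCm38.p6). Python 3.11.15, pandas 2.3.3, numpy 2.4.6, scipy 1.17.1 and pysam 0.24.0 were used, and the scripts were checked on simulated data. No statistical test was made, because there is 1 group and the genes are not replicates. Every gene was accounted for, and the 12 genes with the strongest regions were described in full. Members, lists and settings were chosen with earlier results of these data known. Other lists, distances, start sites, element windows and each replicate alone were tried as alternatives. The values of 1 gene of the retinoid list are not reported here.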

Additional observations from a re-analysis of the deposited data

How the results depend on the processing

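Of 64 alternative values, 26 moved beyond a set tolerance and 38 did not. The tolerance was a factor of 1.5 for a count, so that 13 genes falling to 9 counts as within it. For the median signal it was the SD (1.27) of the medians from the 2 replicates' own thresholded lists. Those medians cover different genes and lower scores, so this SD does not measure the spread of the pooled median. The cause of a move was not tested unless the alternative itself gives it. The 13 genes with a summit within 10 kb became 8 with both replicates' lists required, 8 to 9 with 1 replicate left out, 8 within 2 kb and 27 within 50 kb. The median strongest signal of 44.5 became 42.5 in the conservative list, 41.6 and 43.1 in the pooled and conservative lists of the second run, 79.8 in the strongest 50% of regions, 82.8 with both replicates' lists required, 34.6 within 2 kb and 74.6 within 5 kb. With 1 replicate left out it was 43.0 to 44.8, but these are scores of single-replicate lists over 8 and 9 genes. Those scores run lower than the pooled ones (69.3 and 77.0 against 143.5 at Cbr3), so nearness to 44.5 shows no stability. The number of regions near the genes changed with the setting, so counts of regions are given out of that number. The 9 of 20 regions with an ARE core became 5 of 10 with both lists required. Within 2 kb they became 4 of 9, within 5 kb 5 of 13 and within 50 kb 29 of 49. From gene starts alone there were 5 of 11, without replicate 1 there were 6 of 13, and without replicate 2 there were 6 of 10. The matching shares over all regions are not given for these settings. The composite element, in 1 of 20 regions, was in 0 of 9 within 2 kb and 0 of 13 within 5 kb. From gene starts alone it was in 0 of 11, and from protein-coding transcripts alone in 0 of 12. It was in 15 of 49 within 50 kb and in 8 of 20 with 1 mismatch. The 10 of 20 regions in both replicates' lists became 5 of 9 within 2 kb and 20 of 49 within 50 kb. From gene starts alone they became 6 of 11. The 8 regions within 1 kb of a TSS stayed between 6 and 8. No paired analysis was possible because there is 1 group. Precision is limited by 42 genes and 20 regions, by 2 replicates of 1 source of cells and by an unknown read depth; a nearby region does not show that a gene is regulated.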
